A study of Mus musculus with 16 samples.

Results

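A set of 7 regulators of heart development was followed in ventricular tissue of mouse embryos at E11.5: the basic helix-loop-helix factors Hand1 and Hey2, the homeobox factors Prox1 and Meis1, the T-box factor Tbx2, and the coactivators Myocd and Cited2. They were chosen by symbol, and all 7 were found among the 5921 gene rows held and among the 2620 genes that were tested. The data are 16 RNA-seq libraries in 4 groups of 4. Xmlc2-Cre, which the study uses for deletion in cardiomyocytes, was used to delete floxed Atf4 in both mouse lines. The exon 2-3 line has exons 2 and 3 of Atf4 floxed, and its control and conditional knockout (cKO) libraries form batch 1. The exon 2 line has exon 2 alone floxed, and its control and cKO libraries form batch 2. Line and batch cannot be told apart, so each cKO was set against the controls of its own line. The genotype label reads C57BL/6 WT for all 16 libraries, so it does not separate knockouts from controls; the floxed and Cre status of the controls is not given in the sources used here. Libraries are biological replicates per the labels, and whether embryos of 1 group shared a litter is not stated.

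As background, ATF4 is a transcription factor of the integrated stress response, which cells use when amino acids run short or proteins misfold. In the forming ventricle, cardiac transcription factors act in layers. Hand1 is a left ventricular factor that pairs with E proteins such as Tcf3, and Hey2 is a Notch effector and repressor of the compact myocardium. Prox1 is needed for the order of the sarcomere, and Meis1 takes part in the exit of cardiomyocytes from the cell cycle. Myocd binds serum response factor to switch on muscle genes. Tbx2 represses chamber genes in the atrioventricular canal. Cited2 carries no DNA-binding domain of its own and links factors such as TFAP2 to the acetyltransferases CBP and p300.

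The 7 genes lie on 3 chromosomes of GRCm38. Hand1 (chromosome 11, 57828713 to 57832147, minus strand) has 2 exons in its longest coding transcript in GENCODE, and Hey2 (chromosome 10, 30832359 to 30842783, minus strand) has 5. Prox1 (chromosome 1, 190118035 to 190170827, minus strand) has 5 exons and spans 52793 bases. Meis1 (chromosome 11, 18880428 to 19019651, minus strand) has 10 exons and the longest span, 139224 bases. Myocd (chromosome 11, 65173608 to 65269989, minus strand) has 14 exons. Tbx2 (chromosome 11, 85832615 to 85841948, plus strand) has 7 exons, and Cited2 (chromosome 10, 17723228 to 17725674, plus strand) has 1.

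Promoters in RefSeq (GRCm38.p6) were matched for 4 of the 7 genes, Hey2, Prox1, Meis1 and Cited2, as windows of 250 bases before to 50 after a start site. These 4 were also the members whose control libraries did not overlap between the lines, beside 32.6% of genes tested, as given further on. A link of this to the promoter windows was not tested. The windows were searched on both strands for the E-box of helix-loop-helix factors (CANNTG), the box of HES and HEY repressors (CACGNG), a T-box site (TCACAC), a Meis site (TGACAG), the amino acid response element bound by ATF4 (TGATGNAAN) and the cyclic AMP response element (TGACGTCA). Some of these overlap: CACGTG is both an E-box and a HES and HEY box. An E-box occurred in the window of Hey2 (1), Prox1 (2), Meis1 (1) and Cited2 (2), and 72.3% of 32851 RefSeq promoter windows held one. The windows of Prox1 and Cited2 held a second motif, and their 250 bases before the start are shown 5′ to 3′ with every match in capitals. In Prox1 (chr1:190170828-190171077, minus strand) the first run of capitals joins an E-box to a T-box site read on the other strand, a motif found in 14.5% of windows. In Cited2 (chr10:17722978-17723227, plus strand) the capitals are a CACGTG box, and CACGNG was found in 27.5% of windows.
Prox1: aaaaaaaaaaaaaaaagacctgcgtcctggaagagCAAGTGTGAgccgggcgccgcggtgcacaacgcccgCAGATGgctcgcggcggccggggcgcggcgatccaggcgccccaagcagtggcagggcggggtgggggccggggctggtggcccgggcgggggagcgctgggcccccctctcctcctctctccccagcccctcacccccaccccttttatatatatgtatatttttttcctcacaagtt
Cited2: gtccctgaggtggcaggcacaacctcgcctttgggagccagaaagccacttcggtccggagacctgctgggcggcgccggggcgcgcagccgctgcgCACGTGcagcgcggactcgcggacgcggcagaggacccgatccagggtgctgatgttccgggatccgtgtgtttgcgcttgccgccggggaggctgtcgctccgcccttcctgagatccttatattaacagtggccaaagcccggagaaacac
The other E-box of Cited2 lies after its start, and a second Prox1 start held no match. Neither the amino acid response element (3.95% of windows) nor the cyclic AMP response element (1.79%) was found in these 5 windows, and the Meis site (19.2%) was not found there either. A match describes letters only.

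Hand1 was the only member called changed with the knockout, and in the exon 2-3 line alone. Within the exon 2-3 line, Hand1 stood at 65.5, 58.0, 55.6 and 71.5 TPM in control replicates 1 to 4, and at 40.2, 36.3, 45.1 and 41.7 TPM in the 4 cKO libraries. TPM is a measure of transcript abundance scaled for gene length and to a fixed total per library. Every cKO library lay below every control library. The mean fell from 62.7 ± 7.25 to 40.8 ± 3.64 TPM (SD, n = 4 each), a ratio of 0.651. The log2 difference was -0.60 on the log2(TPM + 1) scale (SE 0.091, 95% interval -0.81 to -0.40, limma adjusted p 0.00573). The same test called 6.72% of the 2620 genes in this line, 109 higher and 67 lower (2.56% of all genes tested). Of the calls 61.9% were higher as deposited, 41.4% after centring each library on its median and 50.5% after quantile normalisation. The fall of Hand1 kept its direction and its call in the alternative scalings and in all 8 fits with 1 library left out (adjusted p at most 0.0201 in the latter). In bulk tissue, fewer cells of a type and less RNA per cell cannot be told apart.

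Exon 2 control libraries held 70.8, 75.9, 60.2 and 63.4 TPM of Hand1, and cKO libraries 70.5, 64.7, 56.7 and 63.1 TPM. These groups overlapped over most of their range. The means were 67.6 ± 7.10 and 63.8 ± 5.65 TPM (SD, n = 4 each). Their log2 difference was -0.08 (SE 0.086, 95% interval -0.27 to 0.11, limma adjusted p 0.999), an interval that does not reach the fall seen in the exon 2-3 line. The test of the difference itself, the exon 2-3 effect minus the exon 2 effect, gave -0.52 (SE 0.13, 95% interval -0.80 to -0.24, limma adjusted p 0.0481) and called 2.37% of the genes tested. Its calls were 67.7% positive as deposited and 52.0% after median centring. That call was near the threshold: it was lost in 12 of 16 fits with 1 library left out (adjusted p up to 0.110, without exon 2 control replicate 3). It was also lost with no filter on low values (0.114) and with no intensity trend (0.0675). Gm32915 overlaps Hand1 by 40 bases on the other strand and was at 2.98 to 5.31 TPM in all 16 libraries.

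**Figure D1:**
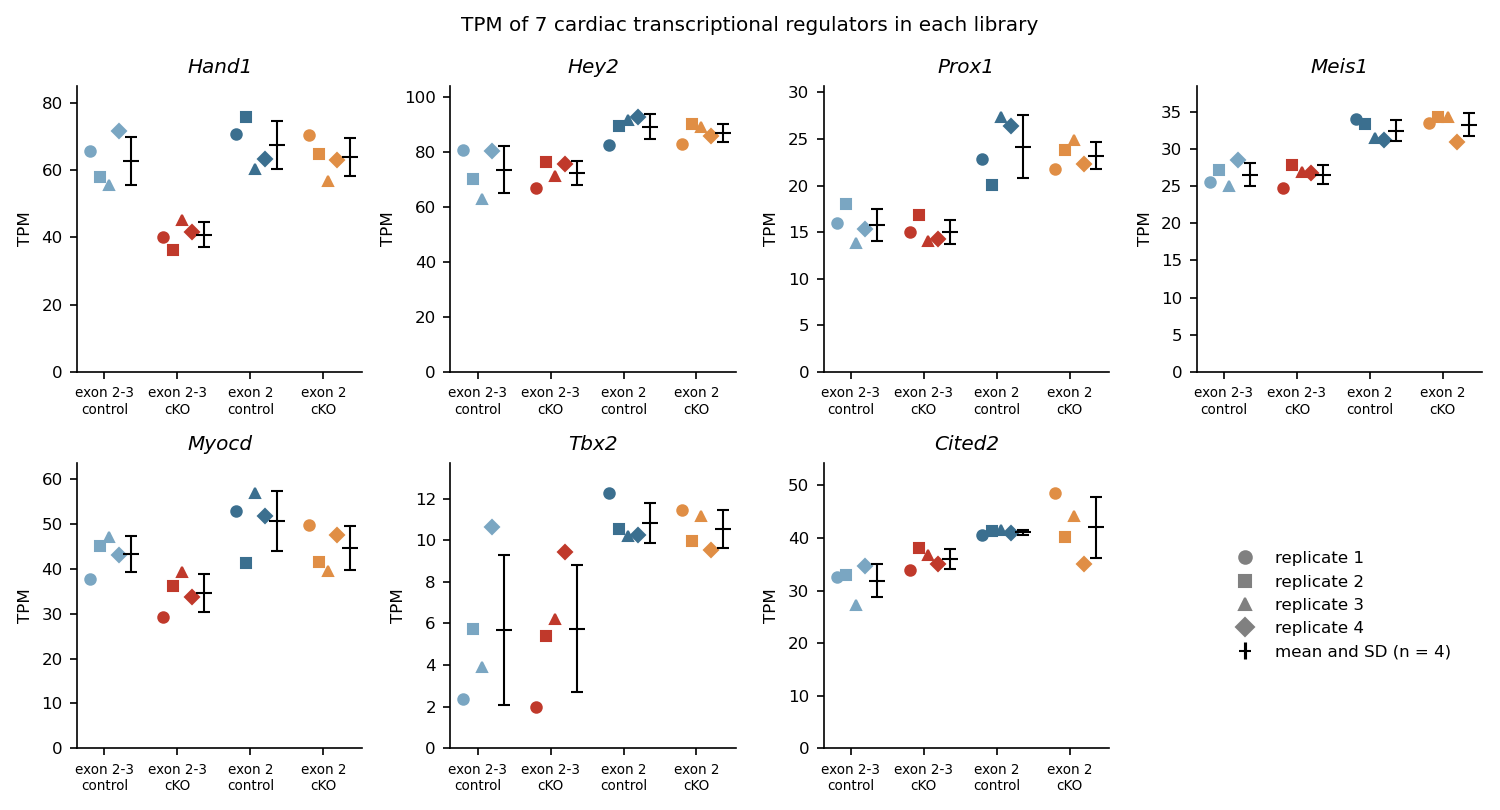
TPM of each of the 7 genes (vertical axes, each from 0) in the 16 libraries, by group; symbols mark replicates 1 to 4 and the bar gives the mean and SD of 4 libraries. The 4 exon 2-3 cKO libraries of Hand1 (36.3 to 45.1 TPM) lie below the other 12, whereas cKO and control libraries overlap within each line for the other 6 genes.

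The level of Hand1 was set beside the markers of the cells the tissue holds. Of 20 cardiomyocyte markers listed, 7 were held: Tnnt2, Tnni1, Myl4, Myl7, Pln, Des and Tcap. Their summed level was 17593 to 19146 TPM in exon 2-3 controls and 17095 to 18142 TPM in the cKO, which overlap, and none of the 7 was called. By direction, 5 of the 7 were lower in the cKO, and Tnni1, the slow skeletal troponin I, had every cKO library (1556 to 2743 TPM) below every control (2772 to 3252 TPM; log2 difference -0.39, limma p 0.0408, adjusted p 0.213). Hand1 per 1000 TPM of these markers was 3.16 to 3.74 in the controls and 2.12 to 2.49 in the cKO, again without overlap. With each library scaled on these markers, a setting added after seeing the data, the log2 difference of Hand1 was -0.54 (limma adjusted p 0.00119). The 2 atrial markers held of 11, Myl4 and Myl7, which are also on the cardiomyocyte list, summed to 8910 to 9557 TPM in controls and 8399 to 9460 TPM in the cKO. Markers of other cell types did move in this line. The 2 epicardial markers held of 12, Tcf21 and Krt19, summed to 116 to 131 TPM in controls and 168 to 191 TPM in the cKO, and both were called higher. The 4 markers held of 13 for the atrioventricular canal and cushion mesenchyme, Prrx1, Col1a1, Col3a1 and Rspo3, summed to 173 to 215 TPM and to 260 to 285 TPM, and 2 were called higher. These were the collagens Col1a1 (0.65) and Col3a1 (0.46), while Prrx1 (0.23, limma adjusted p 0.783) and Rspo3 (-0.03, 0.987) were not called. Endothelial markers (6 of 21 held) were at 200 to 260 and 233 to 274 TPM, and Selp and Sele among them were near 0, at most 0.413 TPM in any library. By direction, all 4 endothelial markers tested were higher in the cKO (median 0.20, beside 0.032 for all genes tested), and none was called. Flt4 had every cKO library above every control (0.24, limma adjusted p 0.127). Smooth muscle markers (2 of 7) were at 43.2 to 57.2 and 41.5 to 56.3 TPM; of these Smtn makes up most of the sum (0.014, limma adjusted p 0.971), and Lmod1 was called higher, as given further on. Among the rest, myeloid markers (5 of 14) were at 86.5 to 88.5 and 75.1 to 87.7 TPM with Ptprc at most 0.544 TPM. Lyz2 makes up most of that sum and was lower in the cKO without overlap (-0.19, limma adjusted p 0.0929). Cd68 (0.39, adjusted p 0.228) and Fcer1g (0.24, 0.675) were higher, and none of these was called. Red blood cell markers (6 of 15) ranged from 2997 to 4556 TPM in controls and from 1513 to 11298 TPM in the cKO. The part of these markers in the fall of Hand1 was not tested beyond the scaling above.

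Within groups, Hand1 followed the cardiomyocyte markers from library to library. With group means removed, Pearson's r of log2 values over 16 libraries was 0.89 and Spearman's rho 0.88, and r was 0.88 without the 2 libraries farthest from the median marker level. The value was 0.94 in the exon 2-3 line and 0.89 in the exon 2 line (n = 8 each). The r of 0.89 is the highest of 56 relations between the 7 genes and 8 marker lists, the libraries share their TPM scaling, and no p is given. The 3 genes most like Hand1 over the 16 libraries, with line means removed, were Opn3 (r = 0.92), Chchd10 (0.91) and Cdc6 (0.91). Removing line means leaves the knockout difference in r, so these genes were picked in part for a fall like that of Hand1. All 3 were called lower in the exon 2-3 cKO (limma adjusted p 0.0310, 0.0124 and 0.0244), which is no separate finding. Cdc6, a licensing factor of DNA replication, was at 13.1 to 16.2 TPM in exon 2-3 controls and 9.33 to 11.9 TPM in the cKO.

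**Figure D2:**
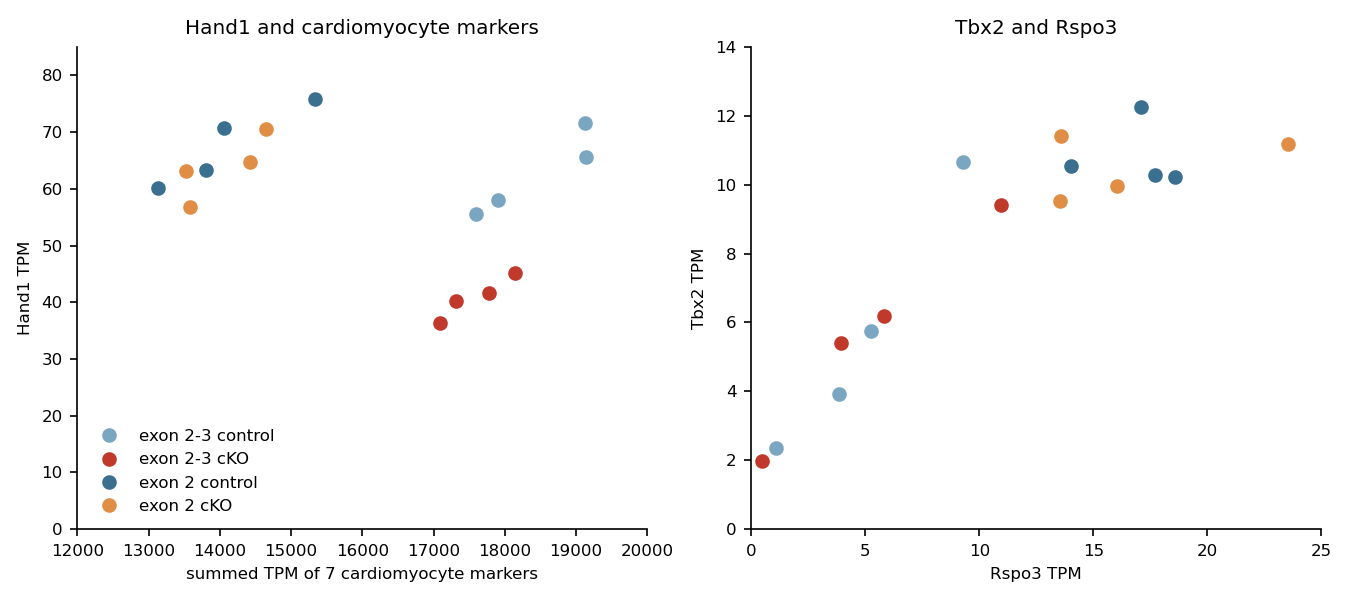
Left, Hand1 TPM against the summed TPM of 7 cardiomyocyte markers (horizontal axis not from 0); right, Tbx2 TPM against Rspo3 TPM; each point is 1 library, coloured by group. Inside groups, libraries with more marker TPM tend to hold more Hand1 (r = 0.89 with group means removed), and the exon 2-3 cKO points lie lower; the 8 exon 2-3 libraries spread along a line for Tbx2 and Rspo3, and the 8 exon 2 libraries cluster at 9.54 to 12.3 TPM of Tbx2.

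Hey2, the Notch effector, was the most abundant of the 7. It stood at 80.7, 70.2, 63.0 and 80.3 TPM in exon 2-3 controls and at 66.8, 76.1, 71.0 and 75.6 TPM in the cKO, so the cKO values fell inside the range of the controls. The log2 difference was -0.017 (95% interval -0.20 to 0.17, limma adjusted p 0.946). Across the exon 2 line, Hey2 was at 82.5, 89.4, 91.6 and 92.8 TPM in controls and 82.7, 90.02, 89.1 and 85.9 TPM in the cKO. There the difference was -0.034 (95% interval -0.16 to 0.087), so a change the size of that of Hand1 lies outside both intervals. Gm51763 overlaps Hey2 by 3066 bases on the other strand and was at 5.99 to 9.40 TPM; whether counting used strand is not stated. The genes most like Hey2 were Tlk2 (r = 0.85), Poc1b (0.85) and the splicing factor Srsf1 (0.82).

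Of the homeobox factors, Prox1 was at 15.99, 18.0, 13.9 and 15.3 TPM in exon 2-3 controls and 15.1, 16.9, 14.02 and 14.3 TPM in the cKO. All 4 cKO values lay within the control range. Its exon 2 values were 22.8, 20.1, 27.4 and 26.4 TPM in controls and 21.8, 23.9, 24.9 and 22.3 TPM in the cKO. The log2 differences were -0.063 (95% interval -0.26 to 0.14) and -0.048 (-0.26 to 0.16). Prox1os, on the other strand, overlaps Prox1 by 532 bases and was at 2.00 to 5.20 TPM. Ulk2 (r = 0.85), Clasp1 (0.82) and Rb1cc1 (0.82) were most like Prox1. Ulk2 and Rb1cc1 both belong to the kinase complex that starts autophagy, and a link of these genes to Prox1 was not tested.

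Meis1 was at 25.5, 27.2, 24.99 and 28.5 TPM in exon 2-3 controls and 24.7, 27.8, 26.8 and 26.7 TPM in the cKO. The exon 2 line held 33.997, 33.3, 31.4 and 31.2 TPM in controls and 33.5, 34.3, 34.2 and 31.0 TPM in the cKO. Both pairs of groups overlapped almost fully. The log2 differences were -0.00043 (95% interval -0.14 to 0.14) and 0.034 (-0.097 to 0.16), narrower intervals than those of Hand1 or Myocd. Gm16141 lies within Meis1 on the other strand and was at most 0.346 TPM in all 16 libraries. Raph1 (r = 0.81), Gdf11 (0.80) and Dnajb12 (0.79) were most like Meis1.

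Myocd, the partner of serum response factor, was lower on average in both knockouts without passing the test in either. It was at 37.8, 45.1, 47.2 and 43.1 TPM in exon 2-3 controls and 29.2, 36.3, 39.2 and 33.7 TPM in the cKO. Only the lowest control (37.8) and the highest cKO library (39.2) crossed. The means were 43.3 ± 4.02 and 34.6 ± 4.25 TPM (SD, n = 4 each), a ratio of 0.7998. The log2 difference was -0.32 (SE 0.097, 95% interval -0.53 to -0.10), with a limma p of 0.00858 and an adjusted p of 0.0885. Exon 2 controls were at 52.9, 41.3, 56.9 and 51.8 TPM and cKO libraries at 49.8, 41.5, 39.6 and 47.5 TPM. There the ratio of the means was 0.879, and the log2 difference was -0.18 (95% interval -0.41 to 0.052, adjusted p 0.999). The difference between the 2 effects was -0.14 (95% interval -0.46 to 0.18, adjusted p 0.750). Gm30586 overlaps Myocd by 65 bases on the other strand and was at 2.43 to 7.02 TPM. Pld6 (r = 0.89), Sgk1 (0.78) and Mrpl27 (0.76) were most like Myocd.

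Cited2 was at 32.5, 32.9, 27.3 and 34.7 TPM in exon 2-3 controls and 33.8, 38.1, 36.8 and 35.1 TPM in the cKO. Of the 4 cKO values, 3 lay above all controls and 1 did not. The log2 difference was 0.17 (95% interval 0.0019 to 0.35, limma p 0.0480, adjusted p 0.229). Of 10 alternatives it passed the test in 1, the fit scaled on cardiomyocyte markers (0.24, adjusted p 0.0382), and in 0 of 8 fits with 1 library left out. That scaling was added after seeing the data, and it moved the median of all genes tested from 0.032 to 0.10. Exon 2 controls were close together at 40.5, 41.3, 41.6 and 40.9 TPM, a coefficient of variation of 1.18%. The cKO libraries spread from 35.1 to 48.5 TPM (48.5, 40.2, 44.2 and 35.1) on both sides of the controls. The log2 difference was 0.022 (95% interval -0.17 to 0.21). The transcription elongation factor Supt6 (r = 0.87), the histone methyltransferase Dot1l (0.86) and Bcl2 (0.84) were most like Cited2.

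Tbx2 was the least abundant, and in the exon 2-3 line it varied more between libraries of 1 group than the other 6. Controls were at 2.37, 5.75, 3.92 and 10.7 TPM and cKO libraries at 1.97, 5.41, 6.19 and 9.41 TPM. The highest library was 4.498 times the lowest among controls and 4.78 times among cKO libraries, and the ranges of the 2 groups nearly coincided. The SD of log2 values stood at the 98.7th percentile of all tested genes in controls and at the 98.5th in the cKO. Exon 2 controls were at 12.3, 10.6, 10.2 and 10.3 TPM and the cKO at 11.4, 9.96, 11.2 and 9.54 TPM, with the SD at the 50.7th and 48.4th percentiles. The log2 difference was 0.033 in the exon 2-3 line (95% interval -0.92 to 0.98) and -0.037 in the exon 2 line (-0.23 to 0.16). The first interval holds changes larger than that of Hand1 in either direction, and without 1 library the value lay between -0.25 (control replicate 1) and 0.38 (cKO replicate 1).

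The gene most like Tbx2 was Rspo3 (r = 0.94 over 16 libraries, line means removed), a secreted Wnt agonist on the list for the atrioventricular canal and cushions. In exon 2-3 controls Rspo3 was at 1.08, 5.23, 3.85 and 9.30 TPM and in the cKO at 0.485, 3.92, 5.81 and 10.96 TPM. The libraries lowest and highest in Tbx2 in each group were lowest and highest in Rspo3 too. Exon 2 libraries held 13.5 to 23.5 TPM of Rspo3. Spearman's rho was 0.77, and r was 0.86 without the 2 farthest libraries, 0.97 within the exon 2-3 line and 0.24 within the exon 2 line (n = 8 each), so the relation rests on the former. Ngfr (r = 0.91) and Wnt9b (0.86) came next. Prrx1, a mesenchymal factor of the same marker list, was at 0.179 to 2.79 TPM in the exon 2-3 line and 4.64 to 8.43 TPM in the exon 2 line. Its r with Tbx2, group means removed, was 0.95 in the former and -0.19 in the latter. Of the collagens on that list, Col1a1 was at 47.6, 46.8, 43.9 and 37.7 TPM in exon 2-3 controls, lowest where Tbx2 was highest. Col3a1 was at 138, 148, 124 and 165 TPM, highest where Tbx2 was highest. The sum of the list, mostly collagen, had an r of 0.31 with Tbx2 over 16 libraries, group means removed. For the smooth muscle list r with Tbx2 was 0.78, and 0.57 without the 2 farthest libraries. This was not particular to Tbx2, as Cited2 (0.70) and Meis1 (0.66) also had a high r with that list. How much of the atrioventricular canal each dissection held was not tested.

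**Figure D3:**
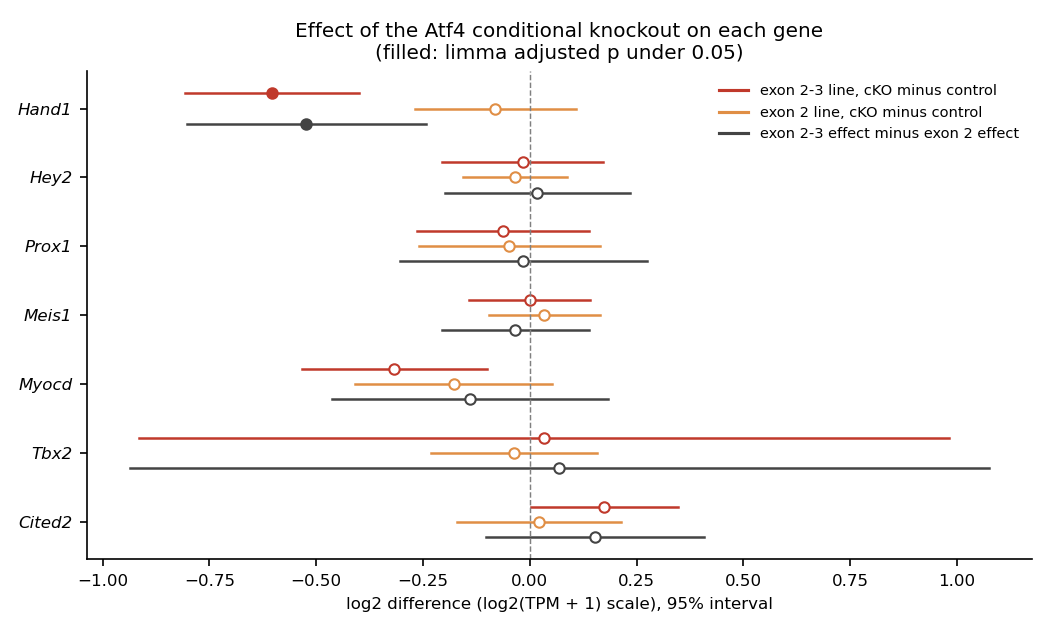
Log2 difference of each gene on the log2(TPM + 1) scale with its 95% interval: cKO minus control in the exon 2-3 line, the same in the exon 2 line, and the first minus the second. Filled points, those with a limma adjusted p under 0.05, occur for Hand1 alone (-0.60 and -0.52), and the widest intervals are those of Tbx2.

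Over the whole set, 1 of 7 members was called in the exon 2-3 line, beside 6.72% of all genes, and at an unadjusted p under 0.05 there were 3 of 7 (Hand1, Myocd and Cited2), beside 21.1%. The cKO and control libraries did not overlap for 1 member, beside 14.5% of genes. Their median log2 difference was -0.017, and that of all genes tested was 0.032. Of the 7, limma called 0 in the exon 2 line, beside 0.0763% of genes (2 genes), and 0 of 7 had an unadjusted p under 0.05 (smallest 0.116, Myocd), beside 3.21%. No member had groups without overlap there, beside 1.83% of genes. The median was -0.037, and that of all genes -0.012.

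In control ventricle, the order by level was Hey2, Hand1, Myocd, Cited2, Meis1, Prox1 and Tbx2 in both lines. TPM is scaled by length, so these levels can be set side by side. In exon 2-3 controls the ranges of Hey2 (63.0 to 80.7 TPM) and Hand1 (55.6 to 71.5 TPM) overlapped, as did those of Cited2 and Meis1. In exon 2 controls Myocd (41.3 to 56.9 TPM) and Cited2 (40.5 to 41.6 TPM) were the only neighbours that overlapped. In the exon 2-3 cKO the mean of Cited2 (36.0 TPM) stood above that of Myocd (34.6 TPM), and Hand1, Cited2 and Myocd overlapped as neighbours. Hey2 ranked above 86.9% of tested genes in exon 2-3 controls and 89.2% in exon 2 controls, and Tbx2 above 27.1% and 38.9%.

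**Figure D4:**
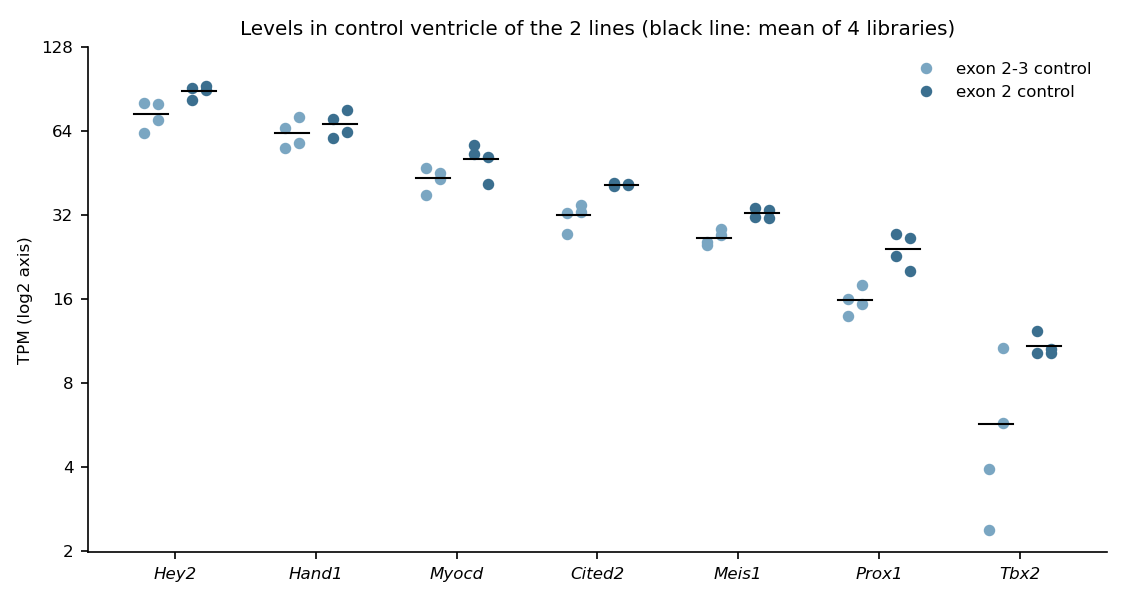
TPM of the 7 genes in the 8 control libraries, on a log2 axis, ordered by level; each point is 1 library and each line a mean of 4. The exon 2-3 mean lies below the exon 2 mean for all 7 genes, from Hey2 (73.5 and 89.1 TPM) to Tbx2 (5.67 and 10.8 TPM).

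The controls of the 2 lines were then compared. All 7 means were lower in exon 2-3 controls, and 5 of 7 passed the test, beside 52.6% of all genes called in either direction and 38.1% called lower. Prox1 differed by -0.58 (SE 0.096, 95% interval -0.78 to -0.38, limma adjusted p 0.000132) and Tbx2 by -0.97 (SE 0.34, adjusted p 0.0230). Cited2 differed by -0.36 (adjusted p 0.00221), Hey2 by -0.28 (0.00432) and Meis1 by -0.28 (0.000734). Hand1 (-0.11, adjusted p 0.354) and Myocd (-0.22, 0.0998) did not pass. For 4 members, Hey2, Prox1, Meis1 and Cited2, every exon 2-3 control lay below every exon 2 control, beside 32.6% of genes. The median over all genes tested was itself -0.14 as deposited, 0.041 after median centring and -0.53 after scaling on cardiomyocyte markers, so the calls depend on the scaling. The direction turned for Hand1 alone, after median centring; the other 6 stayed lower in every alternative run. After median centring only Prox1 was called (-0.40, adjusted p 0.000808), Tbx2 stood at -0.79 (0.0591), Cited2 at -0.18 (0.0586), Meis1 and Hey2 each at about -0.10, Myocd at -0.038 and Hand1 at 0.073. Scaled on cardiomyocyte markers, all 7 were called lower, Hand1 (-0.50, adjusted p 3.85e-06) and Myocd (-0.61, 0.000347) included. Of the calls over all genes 27.5% were higher in exon 2-3 controls as deposited and 57.7% after median centring. The call of Tbx2 was also lost with no filter on low values (0.0658) and without exon 2-3 control replicate 1 (0.0876), exon 2-3 control replicate 3 (0.0669) or exon 2 control replicate 1 (0.0542). Summed cardiomyocyte markers were at 13140 to 15332 TPM in exon 2 controls, below all exon 2-3 controls, and their part in these differences was not tested. Of these 7 markers, 5 were called higher in exon 2-3 controls, most of all Tnnt2 (0.74) and Tnni1 (0.66). The other 2, Pln (-0.076) and Des (-0.082), were lower and not called. Atrioventricular canal and cushion markers were at 313 to 459 TPM in exon 2 controls, above all exon 2-3 controls.

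The members were then set beside other cardiac regulators and their own partners. Of 69 other regulators listed, 10 were held and 9 tested. Tcf21, a factor of the epicardium, was the 1 called in the exon 2-3 line. Its mean was 35.4 ± 3.49 TPM in controls and 57.9 ± 3.71 TPM in the cKO (SD, n = 4 each), a rise of 0.70 on the log2 scale (limma adjusted p 0.000969), with every cKO library above every control. No other regulator passed, so 1 of 9 was called beside 6.72% of all genes, with a median of 0.066 beside 0.032. In the exon 2 line limma called 0 of 9 and 0.0763% of all genes, with medians of -0.071 and -0.012. The 3 most abundant in control ventricle were Smyd2, Tcf3 and Hdac5. Smyd2, a lysine methyltransferase, was at 159 ± 6.61 TPM in controls and 156 ± 6.22 TPM in the cKO of the exon 2 line. There Tcf3, the E protein partner of Hand1, was at 84.1 ± 3.08 and 84.8 ± 6.32 TPM, and Hdac5, a histone deacetylase, at 49.3 ± 8.46 and 47.0 ± 9.54 TPM (SD, n = 4 each). Their log2 differences lay between -0.071 and 0.0092. In the exon 2-3 line every Smyd2 cKO library lay below every control, at 118 ± 3.86 against 134 ± 4.27 TPM (SD, n = 4 each). That log2 difference was -0.17 (limma p 0.00375, adjusted p 0.0540), which was not called, nor were Tcf3 (0.053) and Hdac5 (-0.014).

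Of 67 partners, pathway genes and known targets of the 7, 20 were held and 15 tested. In total 2 were called higher in the exon 2-3 cKO and 0 lower, 2 of 15 beside 6.72% of all genes, with a median of 0.072 beside 0.032. By direction, 11 were higher and 4 lower. Lmod1, a smooth muscle leiomodin driven by serum response factor and its cofactors, was at 1.47 to 2.31 TPM in controls and 3.02 to 5.10 TPM in the cKO (log2 difference 0.74, limma adjusted p 0.0220). The call of Lmod1 was lost with no filter on low values (adjusted p 0.0816), without control replicate 2 (0.0538) and without cKO replicate 3 (0.0646). Ncstn, the nicastrin subunit of the gamma-secretase that cuts Notch, was higher in the cKO, at 99.4 ± 2.84 TPM against 83.7 ± 5.42 TPM (SD, n = 4 each), a log2 difference of 0.25 (limma adjusted p 0.0325). That call was lost in 6 of 8 fits with 1 library left out, in which its adjusted p reached 0.0934 (without cKO replicate 2), and also with no filter on low values (0.0673) and no intensity trend (0.0627). The difference between the lines was called for Tcf21 (0.68, limma adjusted p 0.00255) and for Ncstn (0.34, 0.0192), and it was 0.80 for Lmod1 (0.110). For the exon 2 line limma called 0 of the 15 (median -0.022), beside 0.0763% of all genes (median -0.012). Des, a muscle intermediate filament gene driven by serum response factor, was at 591 ± 48.2 TPM in controls and 594 ± 42.8 TPM in the cKO of that line. Cnn2, a calponin, was at 370 ± 33.5 and 343 ± 29.2 TPM, and Gja1, a connexin, at 298 ± 10.8 and 294 ± 13.9 TPM (SD, n = 4 each).

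Among themselves the 7 genes did not all move in the same direction from library to library, though some pairs did. Over the 21 pairs, with group means removed, Pearson's r over 16 libraries ran from -0.63 (Hand1 and Prox1) to 0.69 (Meis1 and Tbx2). Meis1 and Cited2 followed at 0.65. These values share library scaling and are given as a description.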

How the data were processed

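The authors deposited 1 table of TPM values with a column for each of the 16 libraries. Per the submitters' processing notes, FastQC, Trim Galore 0.6.7, HISAT2 2.2.1, StringTie 2.2.1, featureCounts and DESeq2 were used with GRCm38; which of them made the TPM is not stated, nor is the use of strand. The table was held in part: 2219 rows on chromosome 1, 1695 on chromosome 10 and 2007 on chromosome 11 up to position 106501211, which sum to 15.2% to 17.1% of a library. Other genes, Atf4 among them, were not analysed here, so the labels were not checked against the targeted gene. TPM keeps no depth, so no counting interval is given. The labels differ on library preparation (stranded mRNA or depletion of ribosomal RNA), and the extraction text names cultured cortical neurons, whereas the tissue label is ventricle and the cardiomyocyte markers held summed to at least 13140 TPM in each library.

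The scale of all tests was log2(TPM + 1), on which changes of low genes come out smaller. Genes with a mean of at least 1 TPM over 16 libraries were tested with limma 3.58.1 (R 4.3.3; lmFit, eBayes with intensity trend), two-sided, with Benjamini-Hochberg adjustment over 2620 genes and a threshold of 0.05. Each line was fitted alone, and the difference between lines and between controls came from a model of 4 group means. The fit was tested on simulated data. The 7 members and all lists were chosen with earlier results of these data known, and 2 listed genes are not reported here and were left out of the lists. From each list the called genes were named (at most 5 per line), or the 3 most abundant in controls where none was called, and for each member the 3 genes with the highest r. That r had line means removed, so it holds the knockout difference, and the libraries share their TPM scaling. Alternatives were a pseudocount of 0.1, no filter or a mean of at least 5 TPM, quantile normalisation, median centring, rescaling without hemoglobin genes, one fit over all libraries, array weights, a replicate block, no intensity trend, scaling on cardiomyocyte markers and leaving out each library. Of these, the one fit over all libraries was run only for cKO against control within a line. Array weights were run only for the differences between lines and between controls. Python 3.11.15 with pandas 2.3.3 prepared the tables, and matplotlib 3.10.9 drew the plots.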

Additional observations from a re-analysis of the deposited data

Results flagged for a closer look

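The effect of the knockout on Hand1 passed the test of a difference between the lines, though narrowly: the exon 2-3 effect minus the exon 2 effect was -0.52 on the log2 scale (limma interaction term, adjusted p 0.0481), with every exon 2-3 cKO library below every control of that line and overlapping groups in the exon 2 line. The call was lost in 12 of 16 fits with 1 library left out (adjusted p up to 0.110), with no filter on low values (0.114) and with no intensity trend (0.0675). Among exon 2 controls, 1 library stood apart in Tbx2: replicate 1 was at 12.3 TPM, and its gap to the next library, divided by the range of the 4, was 0.837, just above the critical value of Dixon's test for 4 samples. This was 1 of 28 groups examined (7 genes in 4 groups), and chance flags about 1 in 20.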

How the results depend on the processing

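The fall of Hand1 in the exon 2-3 line kept its direction and call in all 10 alternatives (-0.65 to -0.54, adjusted p at most 0.0376) and with each library left out. Of 854 values of named genes under alternatives or with 1 library left out, 756 kept direction and side of the threshold, 33 lost a call, 8 gained one and 57 turned. The number of genes called in the exon 2-3 line, 176, became 95 with no filter, 311 after quantile normalisation, 343 after median centring, 382 after scaling on cardiomyocyte markers (added after seeing the data; 84.0% higher), and 70 (without cKO replicate 3) to 190 with 1 library left out. In the exon 2 line it was 4 in one fit over all libraries and 2 to 4 with 1 library left out. For the difference between lines, 62 became 133 (quantile), 127 (median), 136 (array weights) and 36 to 84, and for the controls 1377 became 2198 (cardiomyocyte markers). The cause of these shifts was not tested. Replicate numbers were shared by groups, but same-numbered libraries correlated from -0.029 to 0.21 in the exon 2-3 line and from 0.064 to 0.20 in the exon 2 line, so they are not taken as pairs; each cKO library was most like its own number in 1 of 4 and 4 of 4 cases. With a replicate block, 149, 2, 68 and 1400 genes were called, and Myocd passed in the exon 2-3 line (-0.32, adjusted p 0.0239) and between controls (-0.22, 0.0317). Directions turned as follows. In the exon 2-3 line these were Tbx2 (-0.025 quantile, -0.016 median), Meis1 (0.0016 without hemoglobin genes) and, on cardiomyocyte markers, Hey2 (0.052), Prox1 (0.0058) and Meis1 (0.068). In the exon 2 line, quantile normalisation gave Gja1 0.011. For the difference between lines, Hey2 was -0.024 (quantile), -0.036 (median) and -0.029 (array weights), Tbx2 -0.0080 (quantile), and Prox1 0.050 and Meis1 0.031 on cardiomyocyte markers. Between controls Hand1 was 0.073 after median centring. With 1 library left out, exon 2-3 values ran from -0.088 to 0.030 (Hey2), -0.028 to 0.033 (Meis1) and -0.25 to 0.38 (Tbx2). Exon 2 values ran from -0.13 to 0.014 (Prox1), -0.074 to 0.019 (Tbx2), -0.050 to 0.10 (Cited2), -0.029 to 0.051 (Tcf3), -0.19 to 0.011 (Hdac5), -0.032 to 0.060 (Des) and -0.042 to 0.010 (Gja1). Differences between lines ran from -0.054 to 0.064 (Hey2), -0.076 to 0.067 (Prox1) and -0.21 to 0.42 (Tbx2).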
